A study of Mus musculus with 6 samples.

Results

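Transcripts of 44 genes that carry newly made secretory proteins into and out of the endoplasmic reticulum (ER) were examined in 2 kinds of sorted mouse pituitary cell. They were chosen by name as 7 functional groups: 5 genes of the translocon, 4 of the translocon-associated protein (TRAP) complex, 5 of signal peptidase, 8 of the signal recognition particle (SRP) and its receptor, 10 of the COPII coat, 6 of the COPI coat and 6 cargo receptors. All 44 had a row among the 22869 genes of the table, and all 44 were among the 11642 genes that were tested because their mean reached 1 FPKM (fragments divided by transcript length in kilobases and by the mapped fragments of the library). The rule used gene names, and for a gene with several rows the row with the highest mean. The genes were chosen with earlier results of these data known.

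The cells came from pituitaries of female CD1 x C57BL/6 hybrid mice, 6 to 8 weeks old, and no treatment or engineered allele is named in the labels. Somatotropes, which secrete growth hormone, and lactotropes, which secrete prolactin, were sorted apart by FACS (fluorescence-activated cell sorting). There were 3 libraries of each, numbered as biological replicates 1 to 3 in their titles and made from amplified RNA, and values of 3 libraries are given below in that order. The marker or gate of the sort, and whether a replicate held 1 animal or pooled animals, were not given in the sources used here. Thus p-values measure only the spread between these samples.

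A protein bound for secretion is recognised by SRP as its signal peptide leaves the ribosome, docks at the SRP receptor and is threaded into the ER through the Sec61 channel, where signal peptidase cuts the signal peptide off. COPII vesicles then carry folded cargo from the ER towards the Golgi, and COPI vesicles return escaped ER proteins and cargo receptors. Growth hormone and prolactin both take this route in very large amounts, and pituitary hormone cells are known for an extensive rough ER.

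The sort and the libraries were checked on the same table. Gh, which encodes growth hormone, was at 19384 to 84909 FPKM in the somatotrope libraries and 3954 to 7623 FPKM in the lactotrope libraries, and Prl, which encodes prolactin, was at 8709 to 24481 and 25171 to 195325 FPKM, so both hormones separated the groups and both were present in all 6. Replicate 1 of both cell types stood apart from the others. The summed level of 10 leukocyte markers was 58.8, 922 and 736 FPKM in the somatotrope libraries and 261, 3146 and 1479 FPKM in the lactotrope libraries. No marker of these 10 was at 0 in any library, and in each same-numbered pair the lactotrope library had the higher sum. The summed level of 5 erythroid markers was 4259 and 3529 FPKM in the replicate 3 libraries and 5.33 to 325 FPKM elsewhere. For 5 markers of pituitary stem and folliculostellate cells the sum was 254, 2556 and 1134 FPKM in the somatotrope libraries and 140.1, 722 and 175 FPKM in the lactotrope libraries, higher in the somatotrope library of each pair. For 4 markers of corticotropes and melanotropes it ran from 95.9 FPKM in somatotrope 1 to 5778 FPKM in somatotrope 3. The sums of 4 gonadotrope and of 3 thyrotrope markers reached at most 104 and 90.9 FPKM, that of the 4 listed of 6 plasma and B cell markers 30.5 FPKM, and that of 5 endothelial markers 3.27 FPKM. The part of these other cell types in the comparison of the 2 groups was not tested. In lactotrope 3, 14.9% of tested genes had a value of 0, a share that was 0.232% to 2.95% in the rest. A sequencing depth could be recovered only for replicate 1, with 29.3 (somatotrope 1) and 17.6 (lactotrope 1) times 1e6 fragments, and is unknown for the rest.

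Transcripts of the transport machinery were abundant in both cell types. None of the 44 genes was at 0 in any library. The median gene of the 44 stood at 85.3, 25.6 and 17.7 FPKM in the somatotrope libraries and 71.2, 18.3 and 20.8 FPKM in the lactotrope libraries, while the median tested gene stood at 8.05, 4.23 and 3.61 FPKM and at 7.88, 3.93 and 2.49 FPKM. Ranked among tested genes, the median percentile of the 44 was 97.0, 90.2 and 87.0 for the somatotrope and 96.0, 88.7 and 91.6 for the lactotrope libraries. The highest mean level over the 6 libraries was that of Ssr4 at 161 FPKM, followed by Cope at 140 FPKM and Sec61b at 111 FPKM. The lowest were Sec24a at 1.66 FPKM, Srp54a at 1.87 FPKM and Sec24b at 4.54 FPKM.

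**Figure D1:**
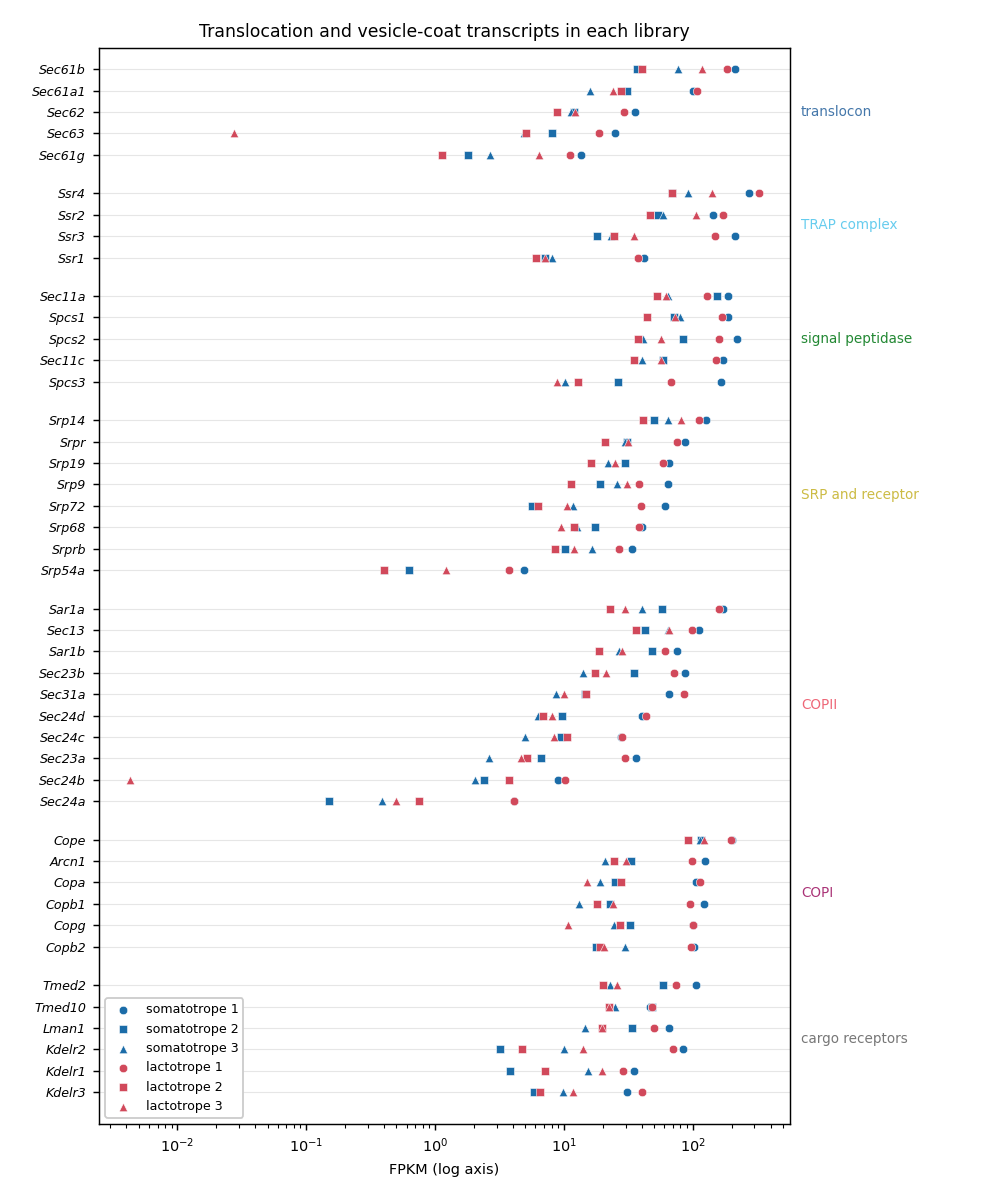
FPKM on a log axis of each of the 44 genes in each library, grouped by role and ordered by mean level within a role, with blue symbols for somatotropes, red for lactotropes and 1 symbol shape per replicate number. Within each colour the circle (replicate 1) lies to the right of the square and the triangle for 43 of the 44 genes, and Sec63 (0.0276 FPKM) and Sec24b (0.0043 FPKM) lie far to the left in lactotrope 3.

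Genes of the secretory pathway are known targets of the unfolded protein response, whose factors ATF6 and XBP1 bind elements such as TGACGTGG, so the promoters were searched for such letters on both strands. RefSeq promoter windows on GRCm38.p6, from 250 bases before to 50 after each start, were found for 34 of the 44 genes (36 windows), and not for Sec61a1, Ssr2, Spcs3, Sec11c, Srp19, Srp68, Arcn1, Tmed2, Lman1 and Kdelr2. The letters TGACGTGG or, on the other strand, CCACGTCA stood in windows of 5 of the 34 genes (14.7%), beside 0.676% of all 32851 windows. These were Sec23a, Sec24d, Copb1, Copb2 and Kdelr3. The shorter TGACGTG, which lies within the longer motif, stood in 6 of 34 (17.6%) beside 2.01%, the added gene being Srpr. The stretches of 4 genes whose match lies before the start are shown, 5′ to 3′ in the direction of the gene with the matched letters in capitals. All are on GRCm38.p6: Sec24d at chr3:123267459-123267488 (plus), Copb1 at chr7:114254690-114254719 (minus), Kdelr3 at chr15:79516367-79516396 (plus) and Srpr at chr9:35211179-35211202 (plus).
Sec24d: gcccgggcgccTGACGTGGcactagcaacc
Copb1: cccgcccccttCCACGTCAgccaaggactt
Kdelr3: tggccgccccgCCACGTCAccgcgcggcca
Srpr: ggctgctggtgTGACGTGtcccgc

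The matches began 26 bases before the start in Sec24d, 28 in Copb1, 30 in Kdelr3 and 13 in Srpr. CCAAT followed after 9 bases by CCACG, the ER stress element, stood in 0 of 34 genes, beside 0.119% of all windows. CCACG alone (or CGTGG), whose letters overlap the end of the longer motif, stood in 21 of 34 (61.8%) beside 32.8%, and CCAAT alone (or ATTGG) in 12 of 34 (35.3%) beside 37.4%. In these comparisons the shares of the 34 count genes and those beside them count windows. The windows were not matched for expression or base composition, and the part of either in the shares was not tested. A match is a description of letters and shows no binding.

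Somatotropes and lactotropes were then compared gene by gene. None of the 44 genes passed limma at an adjusted p of 0.05, and of all 11642 tested genes 0% did. At an unadjusted p under 0.05 the fit found 0 of the 44 and 112 of all 11642 tested genes. Such values were so rare over all genes that 0 of the 44 does not set these genes apart. The smallest unadjusted p among the 44 was 0.252, that of Sec63, and each of the 44 had an adjusted p of 1.00. With the replicate number as a block, which removes what same-numbered libraries share, limma called 0 of the 44 and 0% of all tested genes, and 2 of the 44 had an unadjusted p under 0.05, both higher in somatotropes. Among all tested genes this share was 7.17% towards somatotropes and 3.75% towards lactotropes, and 2 of 44 (4.55%) is below the share towards somatotropes. With array weights limma called 9 genes of the table and with weights and the block 43, and in both fits 0 of the 44. Gh and Prl, which separated the groups, also went uncalled in the unweighted fits. Their unadjusted p in limma was 0.0580 and 0.126 without the block, and their adjusted p 0.315 and 0.347 with it. The absence of calls thus does not show that the 44 genes are alike in the 2 cell types.

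In no case did all 3 libraries of 1 cell type lie above all 3 of the other: this held for 0 of the 44 genes in either direction, against 2.51% of tested genes towards somatotropes and 1.15% towards lactotropes. Within same-numbered pairs, 8 of the 44 were higher in the somatotrope library in all 3 pairs, which is 18.2% beside 22.9% of all tested genes. These were Sec63, Ssr1, Spcs1, Spcs3, Sec11a, Srp68, Srprb and Sar1a. Another 4 were higher in the lactotrope library in all 3 pairs, which is 9.09% beside 11.2%. These were Kdelr3 and the coat genes Sec24a, Sec24c and Sec31a. After other scalings the 8 became 3 (median-ratio) or 5 (quantile, or rescaled without Gh and Prl), so the count depends on the scaling.

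The median difference of the 44 genes, somatotrope minus lactotrope on the log2(FPKM + 1) scale, was 0.16, with 29 of 44 (65.9%) above 0. The median over all tested genes was 0.18, with 64.8% above 0, and it was 0.05 with median-ratio scaling and 0.00 with quantile normalization. Under these scalings the median of the 44 was -0.04 and 0.00. The median also turned with single libraries: leaving out somatotrope 1 gave -0.43, lactotrope 2 -0.24 and lactotrope 3 -0.02, while leaving out lactotrope 1 gave 0.73, somatotrope 3 0.49 and somatotrope 2 0.42. With replicate 1 of both cell types left out it was 0.12, and limma again called 0 of the 44. By pair, the median of the 44 was 0.19, 0.31 and -0.18 in pairs 1 to 3, with 32, 32 and 14 genes higher in the somatotrope library. The same over all tested genes was 0.00, 0.12 and 0.36, with 50.3%, 56.9% and 64.9% higher in the somatotrope library. In pair 3 the transport genes were thus mostly higher in the lactotrope library (30 of 44) while most tested genes were higher in the somatotrope library. In lactotrope 3, 14.9% of tested genes and 0 of the 44 had a value of 0, though Sec63 (0.0276 FPKM) and Sec24b (0.0043 FPKM) were near 0. The median of the 44 was 20.8 FPKM in that library, beside 2.49 FPKM for tested genes. The 44 and all tested genes are therefore not alike in level or in zeros, and the part of this in the contrast was not tested. The 5 genes with TGACGTGG in a promoter window had differences of mixed sign, of -0.02 for Sec23a, 0.00 for Sec24d, -0.05 for Copb1, 0.17 for Copb2 and -0.26 for Kdelr3.

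**Figure D2:**
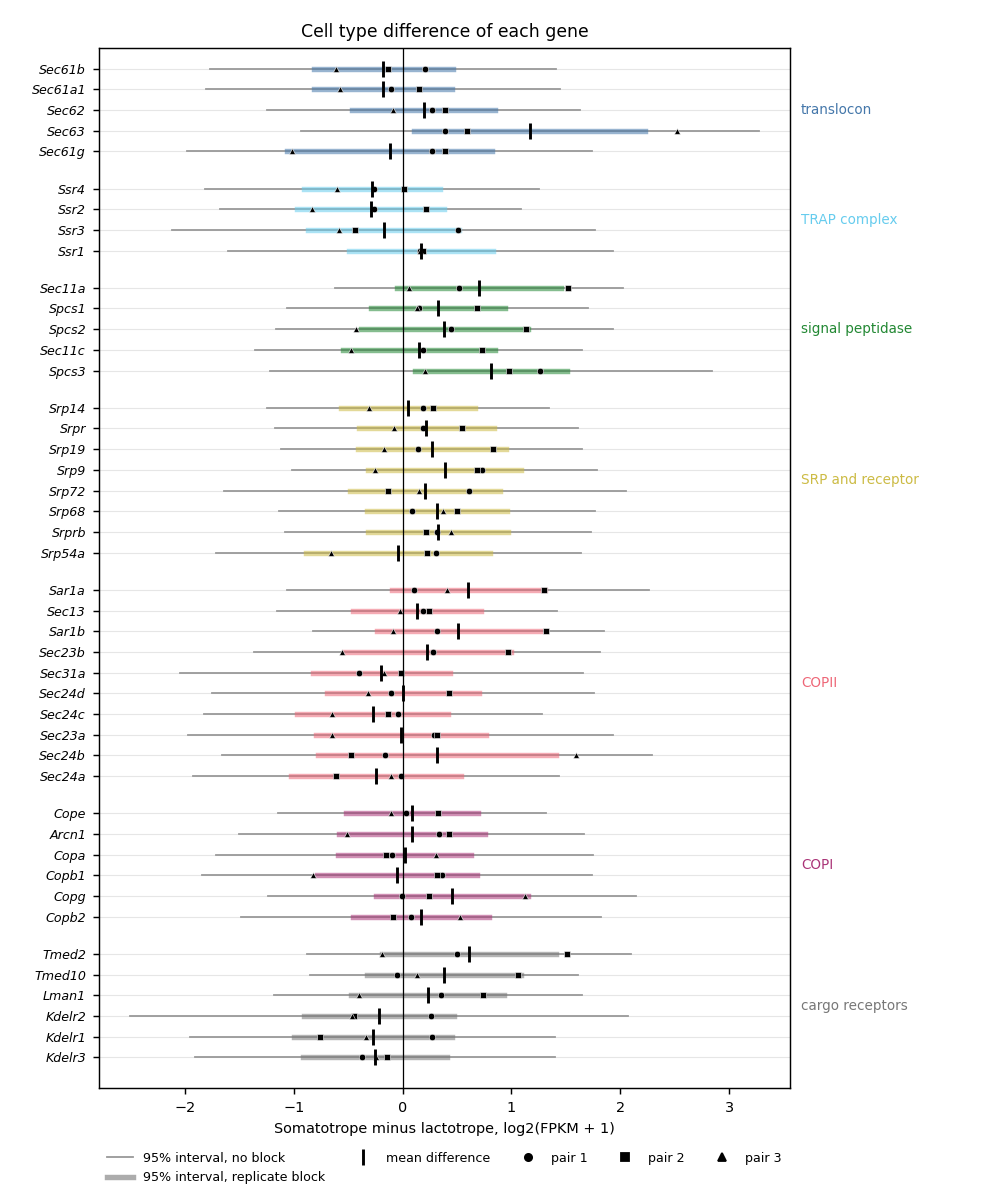
Difference of each gene, somatotrope minus lactotrope on the log2(FPKM + 1) scale, with the mean difference (vertical tick), its 95% interval from limma without a block (thin line) and with the replicate number as a block (thick line), and the 3 pairs as symbols. Every thin line crosses 0, and only the thick lines of Sec63 and Spcs3 do not.

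The channel itself was represented by Sec61b, Sec61a1 and Sec61g, which encode the subunits of the Sec61 complex. Sec61b was at 212, 36.8 and 76.0 FPKM in the somatotrope libraries and 184, 40.4 and 117 FPKM in the lactotrope libraries. Sec61a1, the pore-forming subunit, ran from 15.8 FPKM in somatotrope 3 to 108 FPKM in lactotrope 1. Sec61g was at 13.6, 1.79 and 2.65 FPKM in the somatotrope libraries and 11.1, 1.13 and 6.39 FPKM in the lactotrope libraries. Sec61b and Sec61g were highest in the replicate 1 libraries, and in pair 3 both were higher in the lactotrope library. Sec61g has 3 rows in the table, of which the highest was used.

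Sec62 and Sec63, which encode partners of the channel that help small and weakly signalled proteins through it, kept together except in lactotrope 3. Sec62 was at 35.6, 11.8 and 11.3 FPKM in the somatotrope libraries and 29.3, 8.80 and 12.1 FPKM in the lactotrope libraries. Sec63 was at 24.8, 8.07 and 4.91 FPKM in the somatotrope libraries and 18.7, 5.02 and 0.0276 FPKM in the lactotrope libraries. The difference of Sec63 was 1.17 (SE 0.98) (unadjusted p = 0.252), the largest of the 44, with a 95% interval from -0.94 to 3.27. With the block the interval was 0.11 to 2.23, the unadjusted p = 0.0344 and limma's adjusted p = 0.424. It rested on lactotrope 3: without that library the difference was 0.03, and by pair it was 0.39, 0.59 and 2.52. Lactotrope 3 is also the library with the largest share of tested genes at 0, and the part of that in the value of Sec63 was not tested. Over the 5 translocon genes the median difference was -0.12, and 2 of 5 were above 0.

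The TRAP complex sits beside the channel and helps some substrates enter it. Ssr4, its delta subunit and the gene with the highest mean of the 44, was at 272, 69.3 and 92.0 FPKM in the somatotrope libraries and 325, 68.6 and 141 FPKM in the lactotrope libraries. Ssr2, the beta subunit, was at 144, 54.0 and 58.8 FPKM in the somatotrope libraries and 172, 46.5 and 106 FPKM in the lactotrope libraries. Ssr1, the alpha subunit, was at 42.1, 7.06 and 8.04 FPKM in the somatotrope libraries and 37.6, 6.10 and 7.12 FPKM in the lactotrope libraries. Ssr4 and Ssr2 were higher in the lactotrope library in pairs 1 and 3, and Ssr1 was 0.16 to 0.18 higher in the somatotrope library on the log2 scale in each pair. None of these differences exceeded the spread between libraries, with values of -0.28 (SE 0.71) for Ssr4, -0.29 (SE 0.64) for Ssr2 and 0.17 (SE 0.82) for Ssr1. After median-ratio scaling the difference of Ssr1 was -0.01. Ssr3, the gamma subunit, ran from 17.9 FPKM in somatotrope 2 to 212 FPKM in somatotrope 1. Over the group the median difference was -0.23, with 1 of 4 above 0. Within the complex the order of Ssr4 at the top and Ssr1 at the bottom was the same in all 6 libraries.

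Signal peptidase was the group with the highest median difference, 0.38, and all 5 of its genes had a difference above 0. The median was 0.19 after median-ratio scaling, where Sec11c turned to -0.05, and it was -0.24 without somatotrope 1 and -0.05 without lactotrope 2. The complex has catalytic subunits, Sec11a and Sec11c, of which each enzyme holds 1, and the accessory subunits Spcs1, Spcs2 and Spcs3. Sec11a was at 186, 154 and 63.8 FPKM in the somatotrope libraries and 129, 53.1 and 61.3 FPKM in the lactotrope libraries. It was higher in the somatotrope library in all 3 pairs, by 0.52, 1.52 and 0.06 on the log2 scale, and its difference was 0.70 (SE 0.61) (unadjusted p = 0.275, limma's adjusted p = 1.00). It stayed above 0 in all 19 alternatives, from 0.40 to 1.16, with an adjusted p of 0.278 or larger in limma.

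Spcs3, the subunit thought to be required for the enzyme's activity, was at 164, 26.2 and 10.2 FPKM in the somatotrope libraries and 68.0, 12.9 and 8.77 FPKM in the lactotrope libraries. It was higher in the somatotrope library in all 3 pairs, by 1.26, 0.97 and 0.20, with a difference of 0.81 (SE 0.94) (unadjusted p = 0.403). With the block its 95% interval was 0.11 to 1.51 with an unadjusted p = 0.0274, the smallest of the 44, and limma's adjusted p = 0.407. With block and weights limma's adjusted p was 0.179, and over all alternatives it ran from 0.179 to 1.00. Without somatotrope 1 the difference was -0.27. Spcs2 was at 218, 84.2 and 41.3 FPKM in the somatotrope libraries and 159, 37.8 and 56.1 FPKM in the lactotrope libraries, with pair 3 against pairs 1 and 2. Spcs1 ran from 44.1 FPKM in lactotrope 2 to 186 FPKM in somatotrope 1, and Sec11c from 34.8 FPKM in lactotrope 2 to 171 FPKM in somatotrope 1. Spcs3 was the lowest subunit of the 5 in all 6 libraries.

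Of the SRP, which is built on an RNA of its own, Srp9 and Srp14 encode the pair of proteins that slows translation, and Srp54a the protein that binds the signal peptide. Srp14 was at 127, 49.7 and 64.4 FPKM in the somatotrope libraries and 112, 40.7 and 80.2 FPKM in the lactotrope libraries. Srp9 was at 63.9, 18.9 and 25.7 FPKM in the somatotrope libraries and 38.1, 11.4 and 30.8 FPKM in the lactotrope libraries. Srp14 was the highest gene of the group in all 6 libraries, and both genes were higher in the somatotrope library in pairs 1 and 2 and higher in the lactotrope library in pair 3. Srp54a was at 4.86, 0.629 and 0.400 FPKM in the somatotrope libraries and 3.72, 0.398 and 1.21 FPKM in the lactotrope libraries, and its level is uncertain. The mouse genome holds near-identical copies, Srp54b and Srp54c, the Srp54a row (chr12:56256327-56365681 in mm9, plus strand) spans the Srp54c gene (chr12:56331465-56364007), and the counting may have split reads between them. Srp54c was at 17.9, 2.36 and 1.68 FPKM in the somatotrope libraries and 12.8, 1.73 and 5.38 FPKM in the lactotrope libraries, above Srp54a in every library.

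Srp68 and Srp72 encode a further pair of SRP proteins. Srp68 was at 40.2, 17.4 and 12.5 FPKM in the somatotrope libraries and 37.9, 12.0 and 9.48 FPKM in the lactotrope libraries, higher in the somatotrope library in all 3 pairs with a difference of 0.32 (SE 0.67). Srp72 ran from 5.63 FPKM in somatotrope 2 to 60.7 FPKM in somatotrope 1, and Srp19, which helps the particle assemble, from 16.2 FPKM in lactotrope 2 to 65.3 FPKM in somatotrope 1. Of the receptor, Srprb encodes the membrane-anchored beta subunit and Srpr the alpha subunit that meets SRP. Srprb was at 33.6, 10.1 and 16.4 FPKM in the somatotrope libraries and 26.9, 8.55 and 11.9 FPKM in the lactotrope libraries, higher in the somatotrope library in all 3 pairs by 0.31, 0.21 and 0.44, with a difference of 0.32 (SE 0.65). Srpr ran from 20.9 FPKM in lactotrope 2 to 86.2 FPKM in somatotrope 1 and exceeded Srprb 1.81-fold to 3.07-fold in the 6 libraries. The median difference of the 8 genes was 0.24, with 7 above 0. It was 0.05 after median-ratio scaling, -0.22 without somatotrope 1 and -0.15 without lactotrope 2.

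The COPII coat starts with the small GTPase Sar1, which exists as the paralogs Sar1a and Sar1b. Sar1a was at 170.1, 57.2 and 40.0 FPKM in the somatotrope libraries and 159, 22.6 and 29.9 FPKM in the lactotrope libraries. Sar1b was at 75.6, 47.9 and 26.5 FPKM in the somatotrope libraries and 60.7, 18.7 and 28.3 FPKM in the lactotrope libraries. Both were most different in pair 2, by 1.30 and 1.31 on the log2 scale, and Sar1a was higher in the somatotrope library in all 3 pairs. The differences were 0.60 (SE 0.77) for Sar1a and 0.51 (SE 0.62) for Sar1b, within the spread between libraries. With the block the 95% intervals were narrower, -0.10 to 1.31 and -0.24 to 1.26, and still held 0. Both differences were above 0 in all 19 alternatives, and that of Sar1a was 0.00 without somatotrope 1. Sar1a made up 51.4% to 72.3% of the summed Sar1 level, and its highest shares were in the replicate 1 libraries of both cell types.

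Sec23 and Sec24 form the inner COPII coat, Sec24 being the part that binds cargo, and Sec13 and Sec31a form the outer cage. Sec24a was at 4.07, 0.149 and 0.387 FPKM in the somatotrope libraries and 4.11, 0.754 and 0.495 FPKM in the lactotrope libraries. Sec24c was at 27.5, 9.40 and 4.96 FPKM in the somatotrope libraries and 28.4, 10.5 and 8.31 FPKM in the lactotrope libraries. Both were higher in the lactotrope library in all 3 pairs, with differences of -0.24 (SE 0.78) and -0.28 (SE 0.72). Sec31a, with a difference of -0.20 (SE 0.86), ran from 8.68 FPKM in somatotrope 3 to 85.9 FPKM in lactotrope 1 and was higher in the lactotrope library in all 3 pairs. The differences of Sec24a, Sec24c and Sec31a turned to 0.31, 0.23 and 0.71 without lactotrope 1 and to 0.02, 0.23 and 0.38 without somatotrope 3. Sec13, which also serves in the nuclear pore, had a narrower range, from 36.0 FPKM in lactotrope 2 to 112 FPKM in somatotrope 1. Sec24b ran from 0.0043 FPKM in lactotrope 3 to 10.2 FPKM in lactotrope 1 and Sec24d from 6.30 FPKM in somatotrope 3 to 43.2 FPKM in lactotrope 1. Sec23a and Sec23b ran from 2.59 to 36.2 FPKM and from 14.0 to 87.2 FPKM, both from somatotrope 3 to somatotrope 1. Among the 10 COPII genes the median difference was 0.07, with 6 above 0.

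Coatomer, the COPI coat, was represented by 6 subunit genes. Cope, the epsilon subunit, was at 201, 115 and 113 FPKM in the somatotrope libraries and 196, 91.2 and 122 FPKM in the lactotrope libraries. Copg, a gamma subunit, was at 99.7, 32.2 and 24.5 FPKM in the somatotrope libraries and 100.1, 27.1 and 10.7 FPKM in the lactotrope libraries. Copb2, the beta-prime subunit, was at 102, 17.7 and 29.8 FPKM in the somatotrope libraries and 97.2, 18.9 and 20.4 FPKM in the lactotrope libraries. Cope was the highest COPI gene in all 6 libraries and had the narrowest range of the group, while Copg was lowest in lactotrope 3, where pair 3 differed by 1.12 on the log2 scale. The differences were 0.08 (SE 0.57) for Cope, 0.45 (SE 0.79) for Copg and 0.17 (SE 0.77) for Copb2, and that of Copg was -0.28 without lactotrope 3 and -0.14 without somatotrope 1. Copa ran from 15.1 to 114 FPKM, Copb1 from 13.0 to 123 FPKM and Arcn1, the delta subunit, from 21.0 to 124 FPKM. For the 6 genes the median difference was 0.08, with 5 above 0, and it was -0.11 with median-ratio scaling and -0.05 with quantile normalization.

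Of the cargo receptors, Tmed2 and Tmed10 encode p24 proteins that cycle between ER and Golgi. Tmed2 was at 106, 58.6 and 22.5 FPKM in the somatotrope libraries and 74.3, 19.9 and 25.8 FPKM in the lactotrope libraries. Tmed10 was at 46.1, 47.7 and 24.7 FPKM in the somatotrope libraries and 48.0, 22.4 and 22.4 FPKM in the lactotrope libraries. Both were most different in pair 2, by 1.51 and 1.06 on the log2 scale, and their differences of 0.61 (SE 0.69) and 0.38 (SE 0.57) were above 0 in all 19 alternatives without passing the test in any. Lman1, the lectin ERGIC-53, ran from 14.6 FPKM in somatotrope 3 to 64.7 FPKM in somatotrope 1.

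The KDEL receptors return ER proteins that end in a retrieval signal. Kdelr1 was at 34.6, 3.79 and 15.3 FPKM in the somatotrope libraries and 28.6, 7.11 and 19.6 FPKM in the lactotrope libraries. Kdelr3 was at 30.6, 5.82 and 9.76 FPKM in the somatotrope libraries and 39.9, 6.54 and 11.7 FPKM in the lactotrope libraries. Kdelr3 was higher in the lactotrope library in all 3 pairs, by 0.38, 0.15 and 0.24, with a difference of -0.26 (SE 0.77) that turned to 0.43 without lactotrope 1 and to 0.22 without somatotrope 2. Kdelr2 was at 84.4, 3.19 and 9.98 FPKM in the somatotrope libraries and 70.4, 4.71 and 14.1 FPKM in the lactotrope libraries, the widest spread among libraries in this group, with both replicate 1 libraries at least 4.98 times any other. The median difference of the 6 cargo receptor genes was 0.01, with 3 above 0.

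Paralogs were then set against each other within a library. Of 11 ratios of paralogs or partners, tested as differences of log2(FPKM + 1), which for low genes are smaller than the log2 of the plain ratio and still depend on the scaling, 0 separated the cell types and each had an adjusted p of 1.00 (two-sided exact permutation test, which cannot go below 0.1 with 3 against 3 libraries). Sec23b made up 70.6% to 84.4% of the summed Sec23 level. Of the summed Sec24 level, Sec24c made up 33.1% to 49.2%, Sec24d 31.6% to 50.3%, Sec24b 0.0255% to 17.1% and Sec24a 0.690% to 5.06%. Sec24c and Sec24d were thus the main cargo adaptors by transcript level in all 6 libraries of both cell types.

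The Sec11a to Sec11c ratio was the only one of the 11 with the same sign in all 3 pairs. As a plain ratio of FPKM it was 1.09, 2.64 and 1.59 in the somatotrope libraries and 0.862, 1.52 and 1.09 in the lactotrope libraries. The groups overlapped, and the difference was 0.55 on the log2(FPKM + 1) scale (exact permutation p = 0.3 before adjustment). Kdelr2 made up 56.4% and 50.7% of the summed KDEL receptor level in somatotrope 1 and lactotrope 1 and 24.9% to 31.1% in the other 4 libraries. Here the makeup followed the replicate number and not the cell type.

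**Figure D3:**
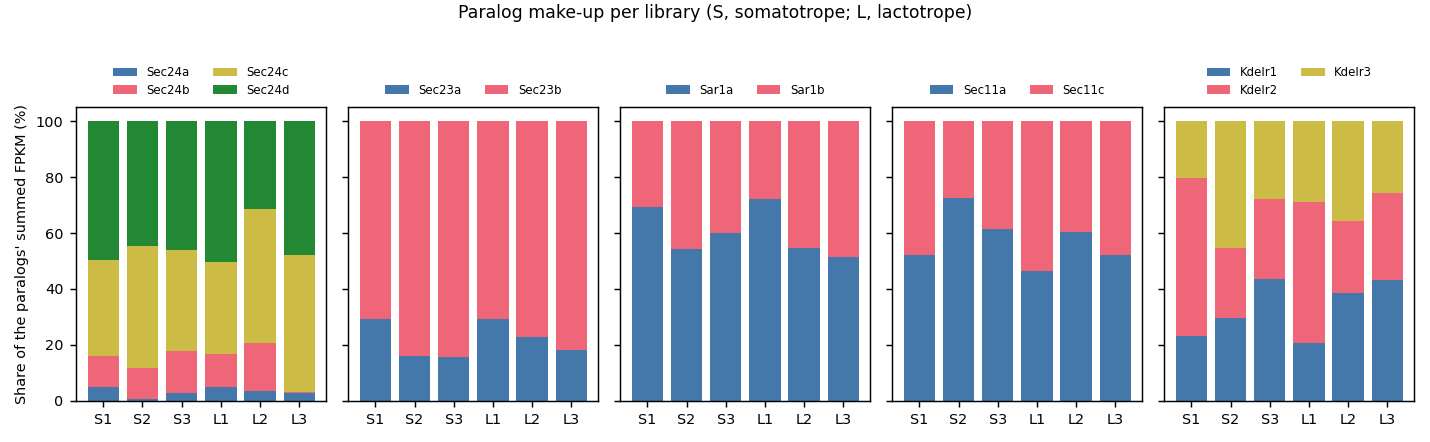
Share of each paralog in the summed FPKM of its family, in percent, as stacked bars from 0 to 100 for each library (S, somatotrope; L, lactotrope; number, replicate). Sec24c and Sec24d fill most of each Sec24 bar, and Kdelr2 takes 56.4% and 50.7% in S1 and L1 against 24.9% to 31.1% elsewhere.

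Levels of these genes differed more between replicates than between cell types. In both cell types replicate 1 held the highest of the 3 values for 43 of the 44 genes, the exception being Tmed10, against 63.1% of all tested genes. Of 72 further tested genes of the same route, described below, 64 (88.9%) did so too, and the pattern was not particular to the 44. The median of replicate 1 minus the mean of replicates 2 and 3 was 1.84 in somatotropes and 1.73 in lactotropes on the log2(FPKM + 1) scale, against 0.85 and 1.14 over all tested genes. Over the 72 further genes these medians were 1.46 and 1.69. Among the 44 the replicate 1 difference ran from 0.41 (Tmed10) to 3.65 (Kdelr2) in somatotropes and from 0.89 (Cope) to 2.98 (Sec63) in lactotropes. After scaling the count was smaller, and it stayed above that of all tested genes: 24 of 44 beside 28.0% with median-ratio scaling, 36 beside 28.2% with quantile normalization and 34 beside 47.0% when rescaled without Gh and Prl. The medians after median-ratio scaling were 0.89 and 0.51, against 0.05 and 0.13 over all tested genes. The summed leukocyte, erythroid, and stem and folliculostellate markers were lowest in replicate 1 of both cell types. The last of these sums rests mostly on Mia1, Aldoc and Cd9, and Sox2 was not lowest in replicate 1 of either cell type. The part of these other cells in the replicate 1 values was not tested. Because the libraries are bulk RNA, fewer secretory cells in a sort and less of these transcripts per cell cannot be told apart.

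Transcript length went with the size of the replicate 1 difference. Across the 44 genes, the Spearman correlation of transcript length with the replicate 1 difference was 0.474 in somatotropes and 0.540 in lactotropes, beside 0.307 and 0.284 over the 11433 tested genes with a length. These are descriptions across genes that share the same 6 libraries.

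**Figure D4:**
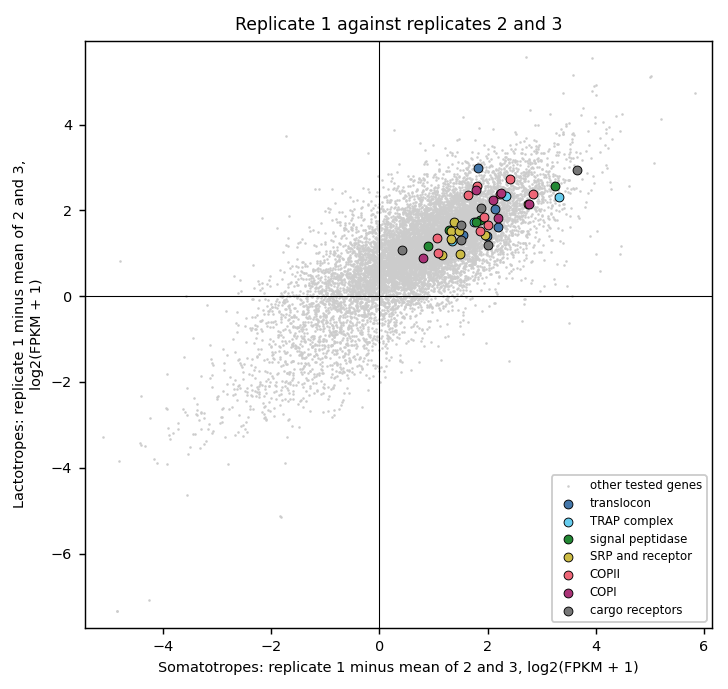
Replicate 1 minus the mean of replicates 2 and 3 on the log2(FPKM + 1) scale, somatotropes on the horizontal and lactotropes on the vertical axis, for each of the 44 genes (coloured by role) and all other tested genes (grey). All 44 lie above 0 on both axes, from 0.41 to 3.65 in somatotropes and from 0.89 to 2.98 in lactotropes.

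The order of the 44 levels was stable among libraries. The Spearman correlation between libraries, over the 44 genes, ran from 0.822 to 0.956, and it was 0.956, 0.915 and 0.942 for the somatotrope and lactotrope libraries of replicates 1 to 3. Within a cell type it ran from 0.823 to 0.920. Between libraries that differ in both cell type and replicate number it ran from 0.822 to 0.908. The genes share their libraries and transcript lengths, so these are descriptions. Over the 6 libraries, each gene's log2 level correlated with the mean standardized level of the 44 with an r between 0.723 (Sec63) and 0.997 (Sec62), with a median of 0.937, beside 0.714 over all tested genes. Each of the 44 is itself part of that mean, which favours them in this comparison. Of all tested genes, 12.3% had an r at or above the median of the 44. The mean standardized level was 1.26 and 1.07 in somatotrope 1 and lactotrope 1 and between -0.84 and -0.41 in the other 4. Among the 10 other tested genes most like this mean were Cmpk1, Gmps, Ddx3x, Ddhd1, Fam114a1, Appl1, Cdkl2, Ube2b and Akap9, with an r from 0.996 to 0.999 over the 6 libraries.

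The machinery was also set against the hormone load it carries, a measure chosen after the values were seen. The summed level of the 44 genes was 4211, 1418 and 1197 FPKM in the somatotrope libraries and 3704, 952 and 1415 FPKM in the lactotrope libraries, and the mean was 2275 ± 1679.7 FPKM (SD, n = 3) against 2023 ± 1474 FPKM (SD, n = 3; two-sided exact permutation p = 0.6). Of all FPKM other than Gh and Prl, the 44 genes made up 1.97%, 0.850% and 0.807% in somatotropes and 1.69%, 0.541% and 1.13% in lactotropes, with overlapping groups (two-sided exact permutation p = 1.0). The summed level of Gh and Prl per FPKM of the 44 genes was 22.7, 19.8 and 56.7 in the somatotrope libraries and 53.8, 33.6 and 111 in the lactotrope libraries.

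Hormone transcript per machinery transcript was higher in the lactotrope library of each pair, 2.38-fold, 1.70-fold and 1.95-fold in pairs 1 to 3. The groups overlapped, since somatotrope 3 lay above lactotropes 1 and 2. The means were 33.1 ± 20.5 in somatotropes and 66.0 ± 39.9 in lactotropes (SD, n = 3), a difference of -33.0 with a two-sided exact permutation p = 0.3, where 0.1 is the smallest possible. It was -33.9 with replicates 2 and 3 only, -10.7 without lactotrope 3, and -74.8 when all rows of a symbol were summed, where Prl has 2 rows. In the sums themselves, the machinery was 1.14 and 1.49 times higher in the somatotrope library in pairs 1 and 2 and 1.18 times higher in the lactotrope library in pair 3.

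**Figure D5:**
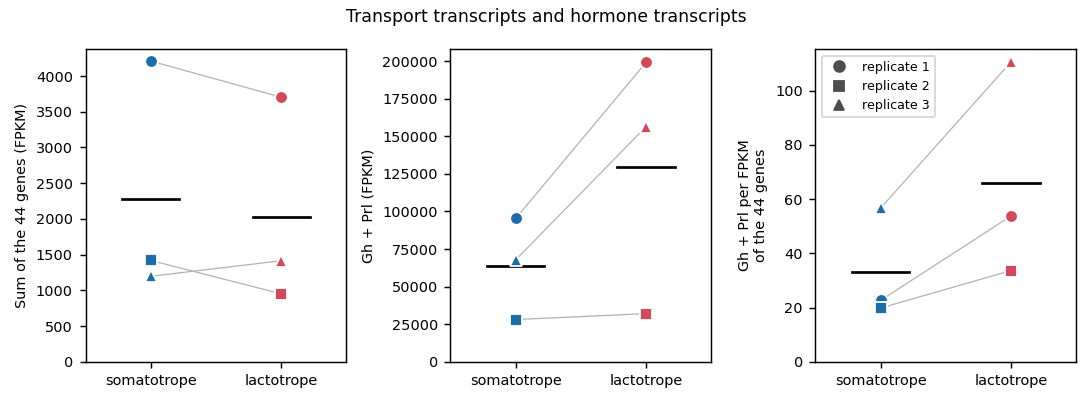
Summed FPKM of the 44 genes (left), of Gh and Prl (middle) and the second divided by the first (right) in each library, with symbols by replicate number, grey lines joining same-numbered libraries and black bars at the group means. In the right panel the lactotrope library lies above its somatotrope partner in all 3 pairs, by 2.38, 1.70 and 1.95 times, while the groups overlap.

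Other genes of the same route were read from the same fit. Of 76 further genes in 7 lists, Tmem258 was not listed by that symbol, Tram2, Srp54b and Sec31b had a mean under 1 FPKM, and 72 were tested, and limma called 0 of the 72 without and with the block. At an unadjusted p under 0.05 there was 1 without the block, Stx18, and 8 with it, 7 higher in somatotropes (9.72%, beside 7.17% of all tested genes) and 1 higher in lactotropes (1.39%, beside 3.75%). Towards somatotropes, 19 of 72 (26.4%, beside 22.9% of all tested genes) had the same sign in all 3 pairs, and towards lactotropes 4 (5.56%, beside 11.2%). Their median difference was 0.18, with 51 of 72 (70.8%, beside 64.8%) above 0. In pair 3 their median was 0.15, with 31 of 72 (43.1%) higher in the lactotrope library, against 30 of 44 (68.2%) and a median of -0.18 for the 44 genes, a difference that was not tested.

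The groups did not overlap for 2 of these 72, Stx18 and Trappc3, which is 2.78% beside 2.51% of all tested genes and so near the background. Stx18, a SNARE protein on which vesicles returning to the ER dock, was at 33.0, 47.0 and 36.6 FPKM in the somatotrope libraries and 19.6, 22.2 and 2.95 FPKM in the lactotrope libraries. Its difference was 1.67 (SE 0.70) (unadjusted p = 0.0321, limma's adjusted p = 1.00), and with the block the adjusted p was 0.332. Trappc3, part of the TRAPP tethering complex, was at 33.4, 34.3 and 28.1 FPKM in the somatotrope libraries and 27.6, 20.5 and 13.2 FPKM in the lactotrope libraries, with a difference of 0.67 (SE 0.55). Bnip1, another SNARE of the same docking site, was on the other side, at 5.20, 1.20 and 2.59 FPKM in the somatotrope libraries and 7.53, 4.65 and 5.99 FPKM in the lactotrope libraries, with a difference of -0.93 (SE 0.70). With the block limma's unadjusted p was 0.0458 for Trappc3 and 0.0375 for Bnip1, with adjusted p of 0.446 and 0.431. Lactotrope 3 had the lowest value of all 6 for Stx18 and Trappc3.

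Oligosaccharyl transferase, which attaches sugar chains beside the channel, had 10 tested genes, 9 with a difference above 0 and a median of 0.25. Over all tested genes 64.8% were above 0, with a median of 0.18. By pair, 6, 9 and 5 of the 10 were higher in the somatotrope library in pairs 1 to 3. Dad1, the highest gene of the group, was at 228, 98.6 and 165 FPKM in the somatotrope libraries. In the lactotrope libraries it was at 248, 82.7 and 207 FPKM. Stt3b, a catalytic subunit, was at 39.9, 25.9 and 10.6 FPKM in the somatotrope libraries and 35.1, 8.73 and 2.51 FPKM in the lactotrope libraries, higher in the somatotrope library in all 3 pairs with a difference of 1.12 (SE 0.82) (unadjusted p = 0.192). Among the remaining genes of translocation, Tram1 had the highest mean, 79.0 FPKM, and Sec61a2, a paralog of the channel subunit, was listed at 0.0128 FPKM in lactotrope 3 and at 2.49 to 17.8 FPKM in the other 5. Of the exit-site genes, Tfg had the highest mean, 33.4 FPKM, and Klhl12, a ubiquitin ligase adaptor that enlarges COPII coats, was listed at 0 in lactotrope 3 and at 2.11 to 11.7 FPKM elsewhere. Sec63, Sec61a2 and Klhl12 thus had their largest pair difference in pair 3, where lactotrope 3 was at or near 0.

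Arf1, the GTPase that recruits COPI, had a mean of 109 FPKM and was higher in the somatotrope library in all 3 pairs with a difference of 0.15 (SE 0.56). Among p24 proteins and lectins, Tmed3 had the highest mean, 121 FPKM. Ergic2 was at 41.6, 21.2 and 15.1 FPKM in the somatotrope libraries and 28.6, 12.1 and 2.63 FPKM in the lactotrope libraries, with a difference of 1.14 (SE 0.76) (unadjusted p = 0.156). With the block the interval of Ergic2 was 0.29 to 1.99, with limma's unadjusted p = 0.0145 and adjusted p = 0.358. A further list held 8 possible carriers of a retrieval signal, mostly chaperones and isomerases. Hspa5, the chaperone BiP, was at 1355, 312 and 234 FPKM in the somatotrope libraries and 853, 224 and 236 FPKM in the lactotrope libraries. Pdia4 was at 231, 61.3 and 54.1 FPKM in the somatotrope libraries and 136, 38.8 and 35.1 FPKM in the lactotrope libraries, higher in the somatotrope library in all 3 pairs with a difference of 0.67 (SE 0.71) (unadjusted p = 0.363). None of these differences passed the test.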

How the data were processed

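RNA of 3 somatotrope and 3 lactotrope libraries was sequenced, per the labels after FACS into Trizol LS and NuGen Ovation V2 amplification. Build mm9 and the tools TopHat, edgeR and bcl2fastq 2.17.1.14 are named per the submitters' processing notes, with no role or order. The step from reads to values was not given in the sources used here. What the authors deposited is a single FPKM table (30399 transcript rows, 1 column per library), whose values scale by transcript length and mapped fragments, so very abundant hormone transcripts lower all other values of a library. No count test was run.

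The 889 rows without a symbol were left out, and each symbol took the row whose mean was highest (38 of the 44 genes have 1 row, and Sec61g, Ssr4, Srp54a, Sec24c, Copg and Lman1 have several). Genes whose mean reached 1 FPKM were tested as log2(FPKM + 1) in R 4.3.3 by limma 3.58.1 (trended eBayes, adjusted by Benjamini-Hochberg over all 11642 genes, threshold 0.05). Fold changes of low genes come out too small on this scale. Ratios and sums were compared with exact permutation tests (scipy 1.17.1). The code was tested on simulated data.

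Deviations from the group mean were correlated between same-numbered libraries (0.763, 0.613 and 0.341 over genes, by replicate). The replicate number in the titles was taken to pair the libraries, and the blocked fit is given where it bears on a result. Differently numbered libraries were not correlated in this way, so these values cannot show that the pairs are rightly matched. Over the 44 genes, somatotrope 3 had a Pearson correlation of log2 levels of 0.932 with lactotrope 2 and 0.927 with lactotrope 3. The Spearman correlations were 0.908 and 0.942. No libraries were duplicates, with at most 2.35% of genes within 1% of each other. Depth was recovered for replicate 1 from low values of olfactory receptor genes, where 100% of 193 and of 20 values lay within 0.1 of a whole fragment.

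The 44 genes, the further lists, the markers and the motifs were chosen with earlier results of these data known. The genes given in full are, in each role group, the highest and the lowest by mean and the 3 with the smallest p, and in each further list the highest by mean and the 2 with the smallest p, of which examples are named; Kdelr2, Trappc3 and Srp54c were named after their values were seen. Alternatives were other pseudocounts (0.1 and 0.5), low-value filters (none, or a mean of 5 FPKM), median-ratio, quantile and hormone-free scaling, summed rows, the replicate block, array weights, no trend, leaving out each library, and replicates 2 and 3 only. Those for the replicate 1 and hormone measures were chosen after seeing the data. Promoter windows came from RefSeq (GRCm38.p6) and were matched by symbol. Of the 10 genes most like the 44, 1 is not reported here.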

Additional observations from a re-analysis of the deposited data

How the results depend on the processing

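None of the 44 genes was called in any of the 19 alternatives. Over all tested genes the count was 9 with array weights and 43 with the replicate block and array weights, and 0 to 3 with 1 library left out. The number of the 44 higher in somatotropes in all 3 pairs was 3 with median-ratio scaling, 5 with quantile normalization and 5 when rescaled without Gh and Prl. With 1 library left out, which leaves 2 pairs, it was 10 to 26. The median difference of the 44 ran from -0.43 to 0.73 with 1 library left out, where 10 to 23 of the 44 differences turned sign. By comparison 9 turned with median-ratio scaling, 7 with quantile normalization and 2 when rescaled without Gh and Prl. Of the 11 paralog ratios, 0 to 2 separated the cell types with 1 library left out and 3 with replicates 2 and 3 only, where fewer libraries make separation easier. With the replicate block (sign-flip permutation within pairs) 1 ratio had the same sign in all 3 pairs, and pairing changed no call of the 44 genes. The number of genes highest in replicate 1 of both cell types was 24 with median-ratio scaling. The difference in hormone per machinery FPKM was -74.8 with summed rows and ran from -49.2 to -10.7 with 1 library left out. Depth is unknown for 4 of the 6 libraries, so no limit could be set on their low values.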
